A study of Mus musculus with 6 samples.

Results

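The genes described here are 38 mouse genes of cholesterol and fatty acid synthesis, out of 47643 genes in the deposited count table. They were taken as a named list and matched by gene ID to symbols, with no measured value in the rule. The list was, however, chosen with earlier results of these data known. All 38 were found, and all 38 passed the filter on low counts that left 15111 genes for testing. By role they are 7 genes of the mevalonate pathway, 11 of the sterol pathway that follows it, 5 regulators of the SREBP transcription factors, 2 genes that handle finished sterol, 10 of fatty acid synthesis and desaturation, and 3 of the liver X receptor (LXR) system.

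RNA was sequenced from sorted mast cells of mouse skin in 6 libraries, 3 embryonic and 3 adult. All came from Cdh5CreERT2 mice, in which an inducible Cre recombinase is driven by the promoter of an endothelial gene, and all mice were given 4OHT, the active form of tamoxifen, at embryonic day 7.5. Embryonic cells were taken at E16.5 with the gate CD45+ F4/80- CD64- ckit+ ST2+ and are described as derived from the hemogenic endothelium of the yolk sac. Adult cells were taken with the gate CD45+ F4/80- CD64- ckit+ Fcer1+ and are described as definitive. Adult skin lost its epidermis in an additional enzyme step, and the labels do not say whether the Cre-marked lineage was used in the sort. Age, origin, gate and dissection differ together between the groups and cannot be told apart. The labels do not say that replicates came from separate animals, so the p-values here rest on spread that may be technical.

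Cholesterol is built from acetyl-CoA through mevalonate, isoprenoid units, squalene and lanosterol. The transcription factors SREBP1 and SREBP2 are held in the endoplasmic reticulum by the Scap and Insig proteins while sterol is plentiful and are released to the nucleus when it runs low, where they switch on genes of sterol and fatty acid synthesis. LXR proteins sense oxidised sterols and raise genes that lower the sterol content of a cell. Mast cells are tissue-resident immune cells whose granules hold proteases and amines, and whose membrane lipids supply substrates for lipid mediators.

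The 6 libraries held 34122162 to 49813523 counts on genes, at which 3 counts correspond to 0.0603 to 0.0850 CPM, counts scaled to a common library size. Of 11 mast cell genes, 6 were higher in the embryonic and 4 in the adult group, and Kit, the stem cell factor receptor, was not called, with means of 4968 and 5392 CPM. The granule protease Cpa3 stood at 38759 against 12887 CPM, while Mcpt4 was at 1119 against 7714 CPM and Ms4a2 at 207 against 1545 CPM. Fcer1a, a subunit of the receptor in the adult gate, was at 5.84 against 762 CPM. Il1rl1, which encodes ST2 of the embryonic gate, was at 1521 against 887 CPM. Across all tested genes 63.0% passed an adjusted p of 0.05 in edgeR's quasi-likelihood test with Benjamini-Hochberg adjustment, 31.2% higher in embryonic and 31.7% higher in adult libraries, and the groups did not overlap for 70.0%. All 12 cell cycle genes listed were higher in embryonic libraries, and their sums were 1155 to 1394 CPM against 115 to 175 CPM. Immediate-early and heat shock genes that respond to cell dissociation summed to 10115 to 22695 CPM in the embryonic and 29578 to 38806 CPM in the adult libraries. Erythroid genes summed to 139 to 323 CPM against 3.68 to 10.5 CPM, with 5 of 5 tested higher in embryonic libraries. Endothelial genes summed to 25.7 to 34.1 CPM against 3.11 to 8.59 CPM, with 3 of 6 higher in embryonic libraries, although the Kdr call among them was lost without embryonic library 3, any 1 adult library or both libraries numbered 3 (adjusted p up to 0.30). The part of these differences in the results that follow was not tested.

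Of the 38 genes, 23 were higher in embryonic mast cells, 9 were higher in adult mast cells and 6 were not called, beside the 31.2% and 31.7% of all tested genes called in each direction. Embryonic and adult values did not overlap for 33 of the 38, against 70.0% of all tested genes. At least 2-fold differences that passed the test numbered 18 higher in the embryonic and 5 higher in the adult cells, against 17.2% and 20.8% of all tested genes. The median log2 difference, embryonic minus adult, was 1.02 for the 38 genes and -0.02 over all tested genes. In these sorted bulk samples, a smaller share of expressing cells and less RNA per cell cannot be told apart.

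**Figure D1:**
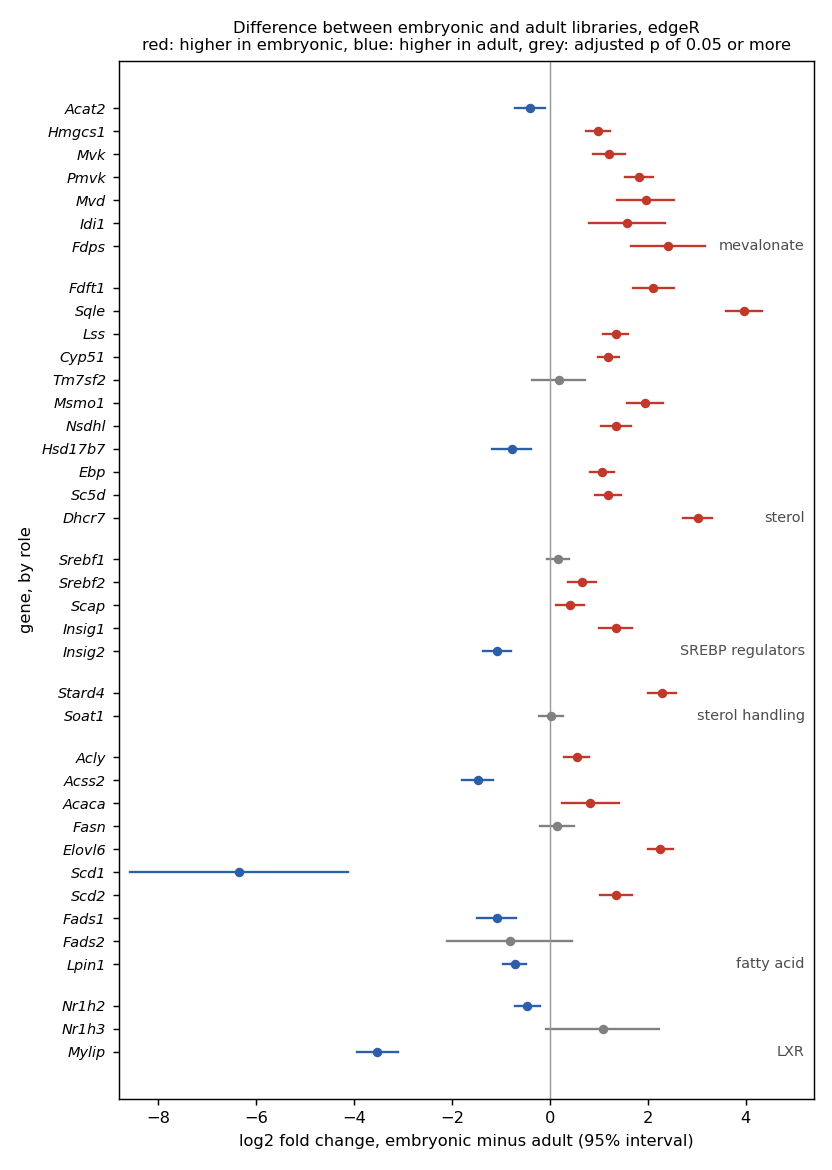
Log2 fold change, embryonic minus adult, of each of the 38 genes with its 95% confidence interval, ordered by role. Points right of 0 are higher in embryonic cells; the sterol enzymes lie mostly to the right, up to 3.96 for Sqle, while the fatty acid genes lie on both sides, down to -6.35 for Scd1.

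The 18 enzymes of the mevalonate and sterol pathways moved mostly in one direction: 15 were higher in embryonic mast cells, 14 of them by at least 2-fold, 2 were higher in adult cells and 1 was not called. Cell cycle genes, the tested erythroid genes and 3 of 6 endothelial genes were higher in the same libraries, as given above. The median log2 difference of the 18 enzymes was 1.34. Their summed level was 1101, 967 and 1109 CPM in the embryonic libraries and 346, 367 and 362 CPM in the adult libraries.

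In the mevalonate segment, 6 of 7 genes were higher in embryonic cells. Hmgcs1 (ENSMUSG00000093930.1), which makes HMG-CoA, the precursor of mevalonate, was measured at 124, 129 and 151 CPM in the embryonic and 62.5, 73.0 and 69.8 CPM in the adult libraries. All embryonic values lay above all adult values, a 1.97-fold difference (log2 0.98 ± 0.11 SE, adjusted p = 3.7e-05). Mvk, the kinase that first phosphorylates mevalonate, was at 17.8, 15.5 and 17.1 CPM against 6.86, 7.73 and 7.32 CPM. Pmvk, the kinase of the next step, was at 26.5, 28.2 and 25.5 CPM against 7.36, 7.96 and 7.32 CPM. Both kinases separated the groups without overlap, by 2.30-fold for Mvk (adjusted p = 5.5e-05) and 3.54-fold for Pmvk (adjusted p = 1.5e-06). Mvd, the decarboxylase that yields isopentenyl diphosphate, stood at 13.1, 9.07 and 11.8 CPM in the embryonic and 3.98, 2.31 and 2.45 CPM in the adult cells, 3.88-fold apart (adjusted p = 0.00012). Idi1, the isomerase of that product, and Fdps, which joins isoprenoid units into farnesyl diphosphate, were counted at 0.553 to 4.24 CPM in every library. They were 2.97-fold and 5.29-fold higher in embryonic cells (adjusted p = 0.0028 and 0.00016). Their levels are uncertain because stretches nearly identical to other genes cover 33.3% of the Idi1 and 91.4% of the Fdps transcript, as described below.

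Acat2, which condenses acetyl-CoA to acetoacetyl-CoA at the entry of the pathway, went the other way. Its values were 14.9, 13.7 and 13.5 CPM in the embryonic and 16.4, 18.4 and 20.9 CPM in the adult libraries, a 1.32-fold difference that passed the test narrowly (adjusted p = 0.029). The call was lost in 8 of 15 alternatives, among them DESeq2 (adjusted p = 0.053), a filter keeping genes with at least 1 count (0.096), and leaving out embryonic library 2 or 3 or adult library 2 or 3, and the adjusted p ranged from 0.018 to 0.21 over the alternatives tried.

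Downstream of farnesyl diphosphate the largest differences of the pathway were found in Sqle and Dhcr7, and 9 of 11 sterol genes were higher in embryonic cells. Fdft1, squalene synthase, was at 18.2, 13.3 and 17.6 CPM in the embryonic and 3.74, 4.13 and 3.47 CPM in the adult libraries (4.32-fold, adjusted p = 6.3e-06). Sqle (ENSMUSG00000022351.14, chromosome 15, 59315077 to 59331192), the squalene epoxidase that catalyses a rate-limiting step, was at 114, 101 and 122 CPM in the embryonic and only 8.79, 5.84 and 7.03 CPM in the adult libraries. The lowest embryonic value was far above the highest adult value, and the means of 112 ± 10.6 and 7.22 ± 1.48 CPM (SD, n = 3 each) were 15.5-fold apart (log2 3.96 ± 0.16 SE, 95% interval 3.59 to 4.33, adjusted p = 5.5e-08). Lss, which cyclises the epoxide to lanosterol, was at 153, 118 and 127 CPM against 52.2, 49.8 and 55.1 CPM, a smaller difference of 2.53-fold (adjusted p = 6.1e-06).

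Most enzymes that trim lanosterol differed in the same direction. Cyp51, the lanosterol demethylase, was nearly constant among embryonic libraries at 122, 120.4 and 120.1 CPM and stood at 48.8, 55.8 and 53.6 CPM in adult libraries (2.29-fold, adjusted p = 3.1e-06). Msmo1, a sterol methyl oxidase, was at 94.6, 90.7 and 137 CPM against 28.6, 29.3 and 25.9 CPM (3.84-fold, adjusted p = 6.1e-06). Nsdhl, which acts with Msmo1 in removing methyl groups, was 2.54-fold higher (adjusted p = 1.7e-05). Ebp, a sterol isomerase, and Sc5d, a sterol desaturase, were 2.09-fold and 2.28-fold higher (adjusted p = 1.7e-05 and 1.5e-05). Dhcr7 (ENSMUSG00000058454.15, chromosome 7, 143823145 to 143848410), the reductase that completes cholesterol from its immediate precursor, was at 245, 180.0 and 206 CPM in the embryonic and 26.8, 27.1 and 24.0 CPM in the adult libraries. The groups were separated by a wide gap, with an 8.10-fold difference (log2 3.02 ± 0.13 SE, adjusted p = 7.6e-08).

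**Figure D2:**
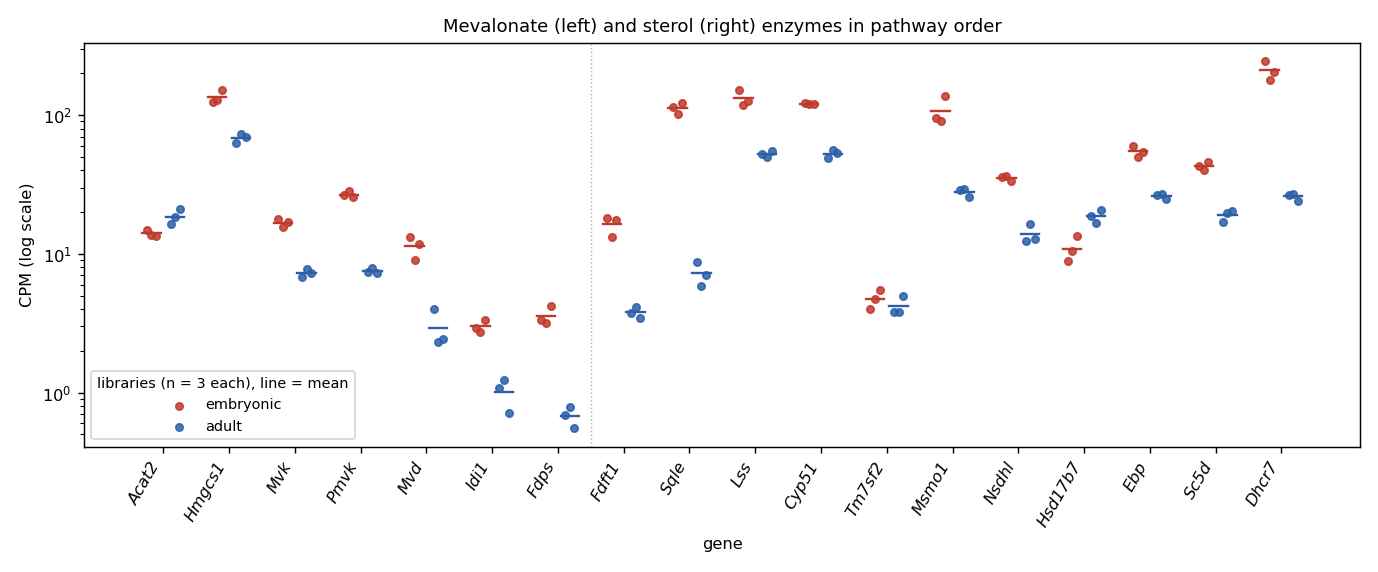
Level in CPM on a log axis of mevalonate and sterol enzymes in each of the 6 libraries, with group means as short lines. Embryonic and adult points lie apart for most enzymes, by the widest gap for Sqle at 101 to 122 against 5.84 to 8.79 CPM.

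Hsd17b7, the ketoreductase that works beside Msmo1 and Nsdhl, was the sterol enzyme that was higher in adult cells. It was measured at 8.89, 10.4 and 13.4 CPM in the embryonic and 18.8, 16.6 and 20.8 CPM in the adult libraries, with no overlap (1.72-fold, adjusted p = 0.0035). Tm7sf2, a sterol reductase, was not called. Its values of 3.99, 4.73 and 5.47 CPM overlapped the adult values of 3.80, 3.81 and 4.95 CPM, and the log2 difference was 0.18 with a 95% interval of -0.36 to 0.72 (adjusted p = 0.54).

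Sqle and Dhcr7, with the largest differences of the pathway, were also set against Lss and against the sum of the 18 enzymes. These ratios and shares restate the differences above and are no separate result. Their size depends on the deposited exon length, which for Lss is 10787 bases against 4667 in its longest coding transcript. Per exon base, the ratio of Sqle to Lss was 1.45, 1.67 and 1.86 in embryonic and 0.327, 0.228 and 0.248 in adult libraries. The ratio of Dhcr7 to Lss was 2.97, 2.84 and 2.99 against 0.950, 1.01 and 0.809. Of the length-scaled sum over the 18 enzymes, Sqle made up 7.72% to 8.27% in embryonic and 1.07% to 1.73% in adult cells, and Dhcr7 made up 13.1% to 16.1% and 4.30% to 5.03%. None of these ranges overlapped. With 3 libraries against 3, the exact two-sided permutation test cannot go below p = 0.1, which each of the 8 ratios and shares compared gave (adjusted p = 0.1).

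The counts of several genes are uncertain because reads placed in more than 1 position were not counted. Stretches of at least 200 bases with at least 95% identity to another gene cover 91.4% of the longest Fdps transcript, whose matches are in 5 genes, 4 of them pseudogenes. The same measure was 65.6% for Acat2, 64.3% for Acaca, 54.7% for Fdft1 and 33.3% for Idi1, and 13.5% or less for the others. In addition, 26.8% of the exon bases of Fdft1 are shared with Ctsb, 26.7% of those of Fdps with Gm43738 and 15.3% of those of Tm7sf2 with Vps51. The levels of these genes relative to their neighbours in the pathway are therefore not read here, although those of the mevalonate and sterol pathways stay in the sums.

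The regulators of SREBP did not move together. Srebf2 encodes SREBP2, the factor that mainly drives sterol synthesis, and was at 209.8, 222 and 177 CPM in the embryonic and 144, 111 and 131 CPM in the adult libraries. The embryonic values were all higher, by 1.58-fold (log2 0.66 ± 0.13 SE, adjusted p = 0.0012). Srebf1, which encodes SREBP1 and is tied more to fatty acid synthesis, was at 152, 128 and 141 CPM against 121, 132 and 124 CPM. These ranges overlapped, and the log2 difference of 0.16 (95% interval -0.06 to 0.38) was not called (adjusted p = 0.17). Per exon base, Srebf2 stood at 1.42 to 1.95 times Srebf1 in embryonic and 0.948 to 1.35 times in adult libraries. Scap, the escort protein of both factors, was at 46.4, 39.2 and 33.7 CPM against 30.0 CPM in each adult library (1.33-fold, adjusted p = 0.019). The Scap call was lost without embryonic library 1, adult library 1 or adult library 2, where the adjusted p was 0.053 to 0.059, within 0.0034 to 0.059 over all alternatives.

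Insig1 and Insig2, the paired anchors that retain Scap and SREBP in the endoplasmic reticulum, differed in opposite directions. Insig1 (ENSMUSG00000045294.11, chromosome 5, 28071363 to 28078662), itself a well-known SREBP target, was at 56.4, 54.6 and 71.1 CPM in the embryonic and 20.6, 22.9 and 28.1 CPM in the adult libraries (2.55-fold higher in embryonic, adjusted p = 3.3e-05). Insig2 (ENSMUSG00000003721.14, chromosome 1, 121304353 to 121332589) was at 18.6, 15.4 and 20.0 CPM in the embryonic and 37.3, 37.5 and 39.6 CPM in the adult libraries (2.12-fold higher than in embryonic, adjusted p = 4.5e-05). Neither gene showed overlap between groups. Per exon base the ratio of Insig1 to Insig2 was 3.41, 3.99 and 4.00 in embryonic cells and 0.619, 0.686 and 0.796 in adult cells, so that Insig1 was the more abundant transcript of the pair in every embryonic library and Insig2 in every adult library.

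**Figure D3:**
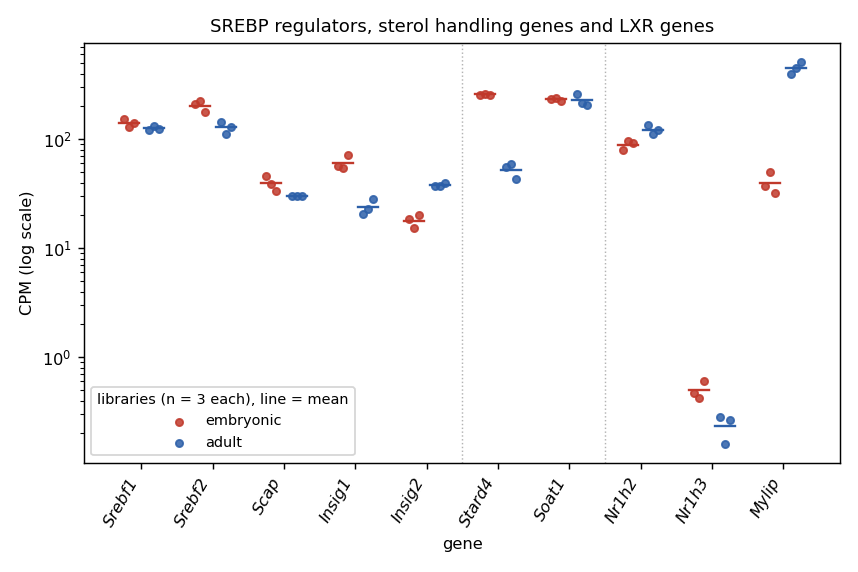
Level in CPM on a log axis of the SREBP regulators, the sterol-handling genes and the LXR genes in each library, with group means as short lines. Insig1 and Insig2 trade places between the groups, Srebf1 overlaps, and Mylip is at most 50.0 CPM in embryonic libraries and at least 399 CPM in adult ones.

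SREBP2 is known to bind sterol regulatory elements in promoters, often beside a CCAAT box bound by NF-Y. RefSeq promoters of build GRCm38.p6 (250 bases before to 50 after each start) were found for 31 of the 38 genes and were searched on both strands. None was found for Fads1, Fdft1, Fdps, Scd1, Scd2 and Sqle. Stard4 lies in a part of the genome that was left out of the search, so its promoter was not looked up. The letters TCACNCCA, the core of the element, were found in 3 of 31 genes (9.68%), namely Hmgcs1, Msmo1 and Srebf2, against 4.54% of 10998 tested genes with a promoter. The longer form TCACNCCAC, which contains the core, was found in 1 (3.23%), Hmgcs1, against 1.38%. The E-box CACGTG, which SREBP1 also binds, was found in 5 (16.1%), namely Dhcr7, Hsd17b7, Insig1, Sc5d and Scap, against 11.4%. CCAAT was found in 23 (74.2%), including 14 of the 15 mevalonate and sterol enzymes matched, against 42.6%, and GGGCGG, the GC box, in 24 (77.4%) against 66.6%. Among all 32851 promoters the shares were 4.36% for the core, 1.24% for the longer form, 7.15% for the E-box, 37.4% for CCAAT and 35.7% for the GC box. The LXR repeat, AGGTCA followed after 4 bases by AGGTCA, was in 0 of the 31 and in 0.0152% of all promoters. These matches describe letters in a window and not measured binding.

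The windows printed here, 5′ to 3′, are those of the 3 genes with the core, of the Insig pair that differed in opposite directions, and of Dhcr7 and Mylip, which had the largest difference in each direction among genes with a RefSeq promoter. Each ends before the first base of the deposited gene, except that of Msmo1, where only the bases around the core are shown, which lie before the RefSeq start but just inside the 5′ end of the deposited gene. Capitals mark the core, the E-box or CCAAT on either strand (ATTGG is CCAAT on the other strand). They lie at chr13:119690101-119690350 on the plus strand for Hmgcs1, chr8:64733733-64733762 on the minus strand for Msmo1, chr15:82147019-82147265 on the plus strand for Srebf2, chr5:28071162-28071362 on the plus strand for Insig1, chr1:121332590-121332839 on the minus strand for Insig2, chr7:143822917-143823144 on the plus strand for Dhcr7 and chr13:45389492-45389741 on the plus strand for Mylip.
Hmgcs1: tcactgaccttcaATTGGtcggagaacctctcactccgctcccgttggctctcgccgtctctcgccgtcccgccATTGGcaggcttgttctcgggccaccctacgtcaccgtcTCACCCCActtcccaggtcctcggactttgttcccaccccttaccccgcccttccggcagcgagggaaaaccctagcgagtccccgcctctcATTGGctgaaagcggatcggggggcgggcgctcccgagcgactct
Msmo1: actattcTCACTCCAtccgcgcagCCAATg
Srebf2: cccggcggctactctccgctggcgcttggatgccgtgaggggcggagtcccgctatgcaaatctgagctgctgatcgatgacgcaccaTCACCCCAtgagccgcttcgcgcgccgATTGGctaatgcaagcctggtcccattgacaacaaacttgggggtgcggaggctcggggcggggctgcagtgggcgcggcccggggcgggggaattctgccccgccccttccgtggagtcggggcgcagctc
Insig1: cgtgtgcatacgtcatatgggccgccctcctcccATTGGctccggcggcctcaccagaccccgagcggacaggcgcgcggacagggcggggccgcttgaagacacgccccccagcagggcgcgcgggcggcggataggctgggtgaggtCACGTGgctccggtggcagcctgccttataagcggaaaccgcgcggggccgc
Insig2: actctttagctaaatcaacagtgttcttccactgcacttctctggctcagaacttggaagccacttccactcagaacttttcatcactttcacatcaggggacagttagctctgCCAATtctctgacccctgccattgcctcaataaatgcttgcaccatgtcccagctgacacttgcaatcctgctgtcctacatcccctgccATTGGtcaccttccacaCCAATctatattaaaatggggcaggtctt
Dhcr7: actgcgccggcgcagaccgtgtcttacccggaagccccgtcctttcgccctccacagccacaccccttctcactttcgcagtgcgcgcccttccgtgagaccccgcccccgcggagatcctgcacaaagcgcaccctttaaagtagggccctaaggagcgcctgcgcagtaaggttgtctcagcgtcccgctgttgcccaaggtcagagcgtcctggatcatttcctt
Mylip: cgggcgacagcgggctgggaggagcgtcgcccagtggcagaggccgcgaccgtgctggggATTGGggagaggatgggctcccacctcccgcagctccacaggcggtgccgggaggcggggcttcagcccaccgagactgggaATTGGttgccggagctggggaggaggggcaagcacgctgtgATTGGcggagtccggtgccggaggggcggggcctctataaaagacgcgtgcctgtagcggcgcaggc
In Hmgcs1 and Srebf2 the core is TCACCCCA and in Msmo1 it is TCACTCCA, each with at least 1 CCAAT box in the window. Insig1 has CACGTG and 1 CCAAT box, while Insig2 and Mylip have 3 CCAAT boxes each and neither the core nor the E-box. The Dhcr7 window holds none of the 3, and the E-box and CCAAT matches counted for it are in the windows of its other listed starts.

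Of the genes that handle finished sterol, Stard4 differed and Soat1 did not pass the test. Stard4, a cytosolic sterol carrier and known SREBP2 target, was at 256, 261 and 255 CPM in the embryonic and 55.6, 59.5 and 42.8 CPM in the adult libraries, 4.89-fold apart with little spread among embryonic libraries (log2 2.29 ± 0.13 SE, adjusted p = 3.5e-07). Soat1, which esterifies cholesterol for storage, was at 235, 239 and 222 CPM against 261, 217 and 206 CPM. The adult values spanned the embryonic ones, and the log2 difference was 0.03 (95% interval -0.22 to 0.27, adjusted p = 0.84).

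Fatty acid genes were divided: 4 of 10 were higher in embryonic cells, 4 were higher in adult cells and 2 were not called, with a median log2 difference of -0.29. The 4 and 4 called lie near the shares of all tested genes, 31.2% and 31.7%. Their summed level was nevertheless larger in embryonic libraries, at 1963, 1705 and 1624 CPM against 1111, 1219 and 1184 CPM, carried by the abundant Scd2 and Acly.

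Acly and Acss2 supply cytosolic acetyl-CoA by different routes and differed in opposite directions. Acly, which cleaves citrate, was at 543, 513 and 450.1 CPM in the embryonic and 309.7, 349 and 372 CPM in the adult libraries (1.46-fold higher in embryonic, adjusted p = 0.0018). Acss2, which uses acetate, was at 9.67, 8.19 and 8.74 CPM in the embryonic and 24.3, 22.1 and 27.6 CPM in the adult libraries (2.78-fold higher than in embryonic, adjusted p = 1.3e-05). Both separated the groups without overlap. Acaca, the carboxylase that makes malonyl-CoA, was at 6.59, 8.05 and 4.44 CPM against 3.60, 3.37 and 3.82 CPM (1.77-fold, adjusted p = 0.019). That call was lost without embryonic library 2 (adjusted p = 0.073), adult library 1 (0.051) or adult library 2 (0.060), within a range of 0.0028 to 0.073 over all alternatives.

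Fasn, the synthase that builds palmitate, was high in both groups and was not called. Its values of 316, 285 and 209 CPM overlapped the adult values of 256, 214 and 264 CPM (log2 0.14, 95% interval -0.21 to 0.49, adjusted p = 0.44). Without embryonic library 3, which was the lowest of the 6, Fasn was called higher in embryonic cells (log2 0.35, adjusted p = 0.031). Over all alternatives the adjusted p of Fasn ranged from 0.030 to 0.85. Elovl6, which elongates palmitate to stearate, was called with a clear gap, at 56.1, 58.2 and 56.9 CPM in the embryonic and 13.3, 10.9 and 11.7 CPM in the adult libraries (4.76-fold, log2 2.25 ± 0.12 SE, adjusted p = 1.8e-07). Per exon base, Elovl6 stood at 0.302 to 0.463 of Fasn in embryonic and 0.0757 to 0.0883 of Fasn in adult libraries.

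The stearoyl-CoA desaturases Scd1 and Scd2, neighbours on chromosome 19 encoded on opposite strands, differed in opposite directions. Both introduce the first double bond into saturated fatty acids. Scd2 (ENSMUSG00000025203.5, chromosome 19, 44293676 to 44306864) was at 919, 719 and 764 CPM in the embryonic and 266, 374 and 308 CPM in the adult libraries (2.54-fold higher in embryonic, log2 1.34 ± 0.15 SE, adjusted p = 3.0e-05). Scd1 (ENSMUSG00000037071.2, chromosome 19, 44394451 to 44407709) was close to the floor in embryonic cells, with 17, 6 and 20 counts, and had 2273, 1210 and 260 counts in adult cells. In CPM these were 0.365, 0.170 and 0.417 against 45.7, 27.9 and 6.84. The adult libraries were spread widely, yet the lowest stood far above every embryonic library, and the fitted difference was 81.5-fold higher in adult cells (log2 -6.35 ± 0.90 SE, 95% interval -8.57 to -4.12, adjusted p = 0.0014). Without adult library 1 the log2 difference was -5.73, and without both libraries numbered 3 it was -7.03. Per exon base, Scd2 stood at 1625 to 3754 times Scd1 in embryonic and 5.15 to 39.9 times Scd1 in adult libraries.

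Scd1 is also abundant in sebaceous glands and fat, and markers of those cells were read beside it. Of 8 sebocyte genes, 5 were tested, 0 were higher in embryonic and 2 were higher in adult libraries. Mgst1 was at 11.4, 11.1 and 10.7 CPM and Krt79 at 12.4, 7.36 and 5.45 CPM in adult libraries 1, 2 and 3, against 0.859 to 2.04 and 2.78 to 3.26 CPM in embryonic libraries, while Awat2, Dgat2l6 and Mogat1 averaged 0.24 CPM or less in both groups. The sebocyte sum was 229 to 245 CPM in the embryonic and 223 to 286 CPM in the adult libraries, most of it Soat1. The 8 adipocyte genes summed to 1.67 to 6.41 CPM in embryonic libraries and to 7.80, 2.45 and 0.579 CPM in adult libraries 1, 2 and 3. This was the order of Scd1 among adult libraries, and 2 of the 8 were tested with neither called. Car3, Fabp4 and Cfd followed that order, with Car3 at 6.28 CPM in adult library 1. Adipoq, Lep, Plin1 and Cidec were highest in adult library 2, at 14 counts or fewer, and Retn had 4, 0 and 2 counts. Of the sebocyte list, Mgst1, Krt79, Soat1 and Cidea followed the order, while Pparg, Awat2, Dgat2l6 and Mogat1 did not. Cidea had 45, 2 and 1 counts. The order was also seen in Elovl3, a fatty acid elongase, with 104, 8 and 5 counts. Fibroblast genes summed to 506, 446 and 91.7 CPM in adult libraries 1, 2 and 3, and to 553 to 686 CPM in embryonic libraries. Among them Col1a1, at 87.8, 57.3 and 15.6 CPM, Col1a2, Dcn and Pdgfra followed the order. Col3a1, at 125, 137 and 25.2 CPM, Lum and Dpt were highest in adult library 2. The part of such cells in the Scd1 result was not tested.

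**Figure D4:**
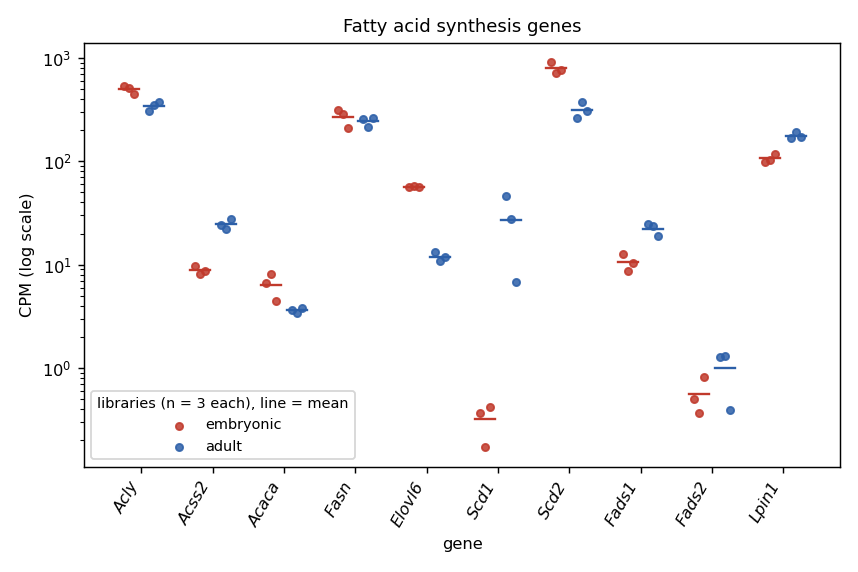
Level in CPM on a log axis of the 10 fatty acid genes in each library, with group means as short lines. Scd1 is the only one below 1 CPM in all embryonic and above it in all adult libraries, while Scd2 spans 719 to 919 CPM in the embryonic and 266 to 374 CPM in the adult libraries.

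Fads1, a desaturase of polyunsaturated fatty acids such as the precursors of arachidonic acid, was at 12.7, 8.61 and 10.3 CPM in the embryonic and 24.6, 23.5 and 18.9 CPM in the adult libraries (2.12-fold higher than in embryonic, adjusted p = 0.00043). Its partner Fads2 was low throughout, at 0.494, 0.368 and 0.814 CPM against 1.27, 1.32 and 0.395 CPM, and was not called (log2 -0.82 ± 0.57 SE, adjusted p = 0.23). Adult library 3 lay within the embryonic range of Fads2, and leaving out both libraries numbered 3 gave a call (log2 -1.56, adjusted p = 0.024, within 0.024 to 0.49 over all alternatives). Lpin1, a phosphatidate phosphatase of glycerolipid synthesis, was at 99.3, 104 and 119 CPM in the embryonic and 167, 193 and 171 CPM in the adult libraries (1.65-fold higher than in embryonic, adjusted p = 0.00023).

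The LXR group held the gene with the largest difference toward adult cells after Scd1. Mylip (ENSMUSG00000038175.9, chromosome 13, 45389742 to 45412019), also called Idol, is an LXR target whose product marks lipoprotein receptors for degradation. It was at 36.9, 50.0 and 31.8 CPM in the embryonic and 399, 448 and 513 CPM in the adult libraries. The means of 39.6 ± 9.37 and 453 ± 57.4 CPM (SD, n = 3 each) were 11.5-fold apart (log2 -3.52 ± 0.18 SE, adjusted p = 4.1e-07). Nr1h2, which encodes LXR beta, was at 79.4, 95.9 and 92.7 CPM against 134, 112 and 122 CPM (1.37-fold higher in adult, adjusted p = 0.0047). Nr1h3, which encodes LXR alpha, was near the limit of detection, with 22, 15 and 29 counts in embryonic and 14, 7 and 10 counts in adult libraries. Its values in CPM did not overlap between groups, but the log2 difference of 1.08 (95% interval -0.07 to 2.24) did not pass the test (adjusted p = 0.093). The macrophage genes listed, some of which are expressed with LXR alpha in macrophages, summed to 15.9 to 42.8 CPM in the embryonic and 156 to 241 CPM in the adult libraries, with 7 of 8 higher in adult, and their part in the LXR values was not tested.

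On the length-scaled TPM scale, levels can be compared between genes only as far as the deposited exon lengths match the transcripts. As given above for Lss, they can differ. Scd2 was the most abundant of the 38 in embryonic cells at 460.0 ± 54.7 TPM, followed by Acly at 299 ± 33.2, Stard4 at 144 ± 6.37, Hmgcs1 at 131 ± 11.8 and Srebf2 at 128 ± 18.2 TPM (SD, n = 3). The ranges of mean ± SD overlapped between neighbours for Stard4 and Hmgcs1 and for Hmgcs1 and Srebf2, and also for Srebf2 and Dhcr7, next at 113 ± 15.9 TPM. In adult cells Mylip was the most abundant at 468 ± 45.0 TPM, followed by Acly at 206 ± 13.7, Scd2 at 184 ± 32.7, Nr1h2 at 116 ± 11.7 and Lpin1 at 98.0 ± 9.07 TPM, and these ranges overlapped for Acly and Scd2 and for Nr1h2 and Lpin1. Sqle stood at 63.4 ± 3.98 TPM in embryonic cells, and in adult cells Sqle and Dhcr7 were at 4.13 ± 0.906 and 14.2 ± 1.34 TPM.

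**Figure D5:**
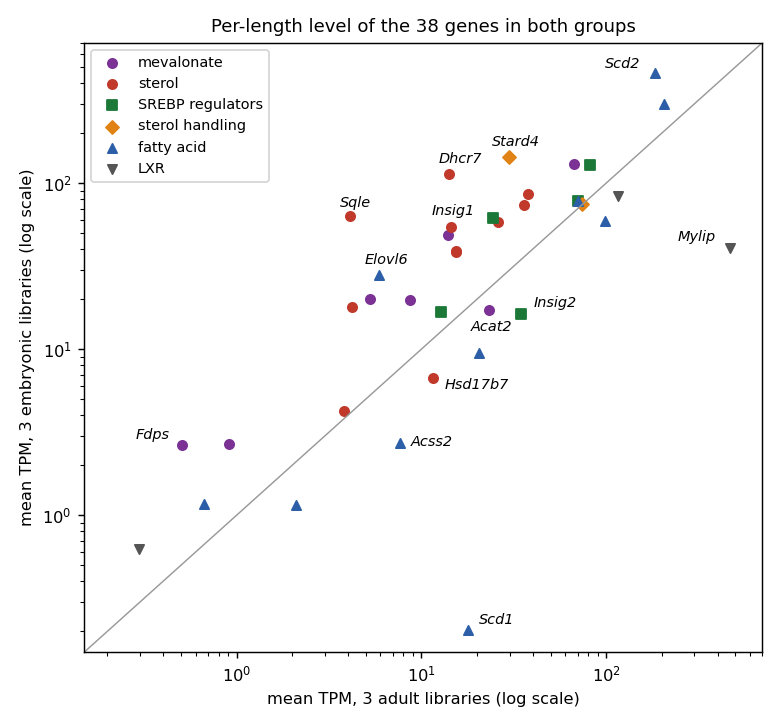
Mean level in TPM of each of the 38 genes in embryonic against adult libraries, both axes logarithmic, with the diagonal of equal level. Mylip and Scd1 lie far on the adult side, and Sqle, Dhcr7 and Stard4 far on the embryonic side.

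Lists of other genes around the pathway were also read. Their counts here and in the following paragraphs stand beside 31.2% and 31.7% of all tested genes called higher in embryonic and adult libraries. For several of the lists the counts lie near those shares. Among 10 genes of the isoprenoid branches, which lead to protein prenylation, dolichol and ubiquinone, 3 were higher in the embryonic and 3 in the adult cells, with a median log2 difference of 0.07. Fntb and Fnta, the subunits of farnesyltransferase, differed in opposite directions: Fntb was 2.97-fold higher in embryonic (adjusted p = 9.3e-05) and Fnta 1.76-fold higher in adult cells (adjusted p = 0.00050). Nus1, a subunit of the enzyme that makes dolichol precursors, was 1.64-fold higher in embryonic cells, and Icmt, which methylates prenylated proteins, was 1.61-fold higher in adult cells. Of 8 genes that cleave SREBP or degrade Insig proteins, 1 was higher in the embryonic and 2 in the adult cells. Erlin2, a protein of the endoplasmic reticulum membrane, was 1.67-fold higher in embryonic cells (adjusted p = 0.00018), and Mbtps2, the site-2 protease of SREBP, was 1.83-fold higher in adult cells (adjusted p = 0.0015).

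Of 9 further known or reported SREBP targets, 8 were tested, 4 were higher in the embryonic and 1 in the adult cells, with a median log2 difference of 0.66. Tmem97, a sterol-regulated membrane protein, was at 30.1 ± 5.19 CPM in the embryonic and 6.29 ± 0.281 CPM in the adult cells (SD, n = 3, 4.79-fold, adjusted p = 1.4e-06), and the glycolytic enzyme Aldoc was 5.74-fold higher in embryonic cells. Mid1ip1, an activator of acetyl-CoA carboxylase, was 3.66-fold higher in adult cells (adjusted p = 1.7e-06). Of 7 LXR partners and targets, 2 were higher in the embryonic and 3 in the adult cells. Abcg1, a sterol exporter and LXR target, was at 9.63 ± 2.30 against 46.5 ± 8.89 CPM (4.83-fold higher in adult, adjusted p = 9.2e-06), while Lpcat3, an LXR target that remodels phospholipids, was at 134 ± 11.4 against 66.9 ± 3.54 CPM, higher in embryonic cells (adjusted p = 1.6e-05). Rxra, the LXR partner receptor, was 1.65-fold higher in embryonic cells. Arl4c, a small GTPase regulated by LXR, was 37.1-fold higher in adult cells (log2 -5.22, adjusted p = 0.0013), and -5.99 on the log2 scale without embryonic library 3.

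Of 13 genes of sterol storage and transport, 3 were higher in the embryonic and 4 in the adult cells, with a median log2 difference of -0.07. Soat2, the second sterol esterification enzyme, was at 79.8 ± 3.69 CPM in the embryonic and 22.6 ± 2.11 CPM in the adult cells (3.52-fold, adjusted p = 4.9e-07), in contrast to the overlapping values of Soat1. Among the Gramd1 sterol transfer proteins, Gramd1c was 2.58-fold higher in embryonic and Gramd1b 3.25-fold higher in adult cells (adjusted p = 0.00036 and 3.5e-06), and Osbpl11, an oxysterol-binding protein relative, was 2.03-fold higher in adult cells.

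Among 19 further genes of fatty acid elongation, desaturation and activation, 15 were tested, 8 were higher in the embryonic and 3 in the adult cells, and the list summed to 2057 to 2254 CPM against 968 to 1038 CPM. Elovl5, which elongates polyunsaturated fatty acids, made up much of this at 1029 ± 147 against 179 ± 18.3 CPM (5.76-fold, adjusted p = 2.3e-07). Hacd3, a dehydratase of the elongation cycle, was 2.18-fold higher in embryonic cells, and the acyl-CoA synthetases Acsl4 and Acsl1 were 1.80-fold and 1.65-fold higher in adult cells. Fatty acid oxidation genes were higher in embryonic cells for 9 and in adult cells for 2 of 17 tested, with Acads and Decr1, enzymes of mitochondrial oxidation, 2.84-fold and 2.90-fold higher in embryonic, and the peroxisomal Ehhadh 3.10-fold higher in adult cells. Of 12 lipid droplet genes 8 were tested, 3 were higher in the embryonic and 1 in the adult cells. Hilpda, an inhibitor of droplet lipolysis, was 3.04-fold and the coat protein Plin3 1.72-fold higher in embryonic cells, and Pnpla2, the main triglyceride lipase, was 1.89-fold higher in adult cells (adjusted p = 2.3e-05).

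Single libraries stood apart in places. Embryonic library 2 was the lowest of its group for 20 of the 38 genes and for 7 of the 11 sterol enzymes. Embryonic library 3 stood apart in keratinocyte genes. They summed to 596 CPM there, 64.5 and 128 CPM in the other embryonic and 37.0 to 63.4 CPM in the adult libraries. Of the 8 keratinocyte genes 2 were called, both higher in embryonic libraries. Krt1 was at 19.0, 43.6 and 243 CPM against 0.323 to 0.463 CPM in adult libraries (adjusted p = 0.0069). The Krt1 call held without embryonic library 3. Krt10 was at 18.4, 42.2 and 218 CPM against 0.816 to 4.69 CPM (adjusted p = 0.021). Its call was lost without adult library 2, adult library 3 or both libraries numbered 3. Their part in the results was not tested. Adult library 3 stood apart in fibroblast genes, at 91.7 CPM against 446 to 686 CPM in the others. Leaving out both libraries numbered 3, an alternative chosen after seeing the data, gave 24 of the 38 genes higher in the embryonic and 9 higher in the adult cells, and 15 of the 18 mevalonate and sterol enzymes higher in embryonic cells.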

How the data were processed

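RNA from 6 libraries of sorted skin mast cells, 3 embryonic and 3 adult, was made into full-length cDNA with a SMART-Seq v4 kit and libraries with Nextera XT, per the labels' protocols. The reads carry no molecular identifiers and no strand, so floors cover only counting error. The table deposited by the authors holds raw counts for each gene. Per the file headers, it was made by featureCounts 1.5.0-p1 over GENCODE M9 exons, unstranded, ignoring marked duplicates, with no option to count multi-mapped reads. Per the submitters' processing notes, STAR aligned to GRCm38 with edgeR also named. No version of either is stated in the labels, nor whether duplicates had been marked.

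Gene IDs were matched to GENCODE M21 symbols (47224 matched, 419 did not). The test was edgeR's quasi-likelihood F test (version 4.0.16, R 4.3.3) after TMM scaling and filterByExpr at its minimum of 10 counts, with a robust fit. P-values of all 15111 genes left were adjusted by Benjamini-Hochberg, with 0.05 as the threshold. CPM used TMM-scaled library sizes, and TPM was computed from the counts and the deposited exon lengths. The standard error was the log2 fold change divided by the square root of F. The biological coefficient of variation was 22.5%. Libraries of a group differed by more than counting noise (chi-square per degree of freedom 38.0 to 95.9). On simulated data, 24% of genes changed 1.5-fold, 54% at 2-fold, 84% at 4-fold and 90% at 8-fold were recovered, 50 genes per size among 15111, with 7 false among 133 calls. Far fewer genes were changed there than the 63.0% called in the data, so these shares do not give the recovery in the real comparison. Near-identical copies were found with BLAST on GENCODE M21 transcripts.

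The 38 genes and the other lists were chosen with earlier results of these data known. From each other list the text names up to 2 genes per direction with the smallest adjusted p, of which some are not reported here. Values are given per library for the leading genes of each role, for those against their group, and for Srebf1, Srebf2, Insig1 and Insig2. Alternatives were other scalings, filters, thresholds, DESeq2 1.42.0, limma-voom (limma 3.58.1), a replicate block and leaving out each library. Promoter sequences are from RefSeq. Promoters on chromosome 18 were left out of the search, and that of Stard4, which lies there, was therefore not looked up.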

Additional observations from a re-analysis of the deposited data

How the results depend on the processing

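Over all alternatives, the genes called higher in embryonic cells numbered 21 to 24 and those higher in adult cells 7 to 9 of 38, against 23 and 9. Leaving out 1 library at a time gave 21 to 24 and 8 to 9. The mevalonate and sterol enzymes higher in embryonic cells numbered 15 in every setting, and the fatty acid genes 3 to 5 in embryonic and 4 to 5 in adult cells. Of the 38 genes, 32 kept their direction and their side of the threshold of 0.05 in every setting that tested them, and Acat2, Acaca, Scap, Fasn, Fads2 and Soat1 did not. Soat1, not called in any setting, had a log2 difference of -0.0139 without adult replicate 2, -0.0425 without adult replicate 3 and -0.00680 without both libraries numbered 3, against 0.0272, and leaving out 1 library gave -0.0425 to 0.131, and the cause was not tested. A filter at 1 CPM in 3 libraries left 36 of the 38 tested. Replicate numbers gave no sign of pairing, with deviations of same-numbered libraries correlated at -0.11, -0.09 and -0.12. With 3 libraries per group, such weak values cannot exclude pairing. With a replicate block, 23 and 8 of the 38 genes were called higher in embryonic and adult cells, 15 sterol and mevalonate enzymes and 4 and 4 fatty acid genes, and over all genes 4379 and 4469 against 4722 and 4797. The block ended the Acat2 call (adjusted p = 0.056). Depth limits Nr1h3, Fads2 and embryonic Scd1, which had few counts.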
